A study of Fragaria vesca with 8 samples.

Results

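FvMYB10 (FvH4_1g22020) and RAP (FvH4_1g27460) are 2 genes of fruit anthocyanin, and their transcripts were followed in all 8 libraries of woodland strawberry (*Fragaria vesca*) fruit. They were picked by name, with the identifiers of the gene annotation, out of the 34009 genes of the count table. The fruits were of "Yellow Wonder" 5AF7, an inbred line with white ripe fruit, and were injected while turning from green to white with Agrobacterium carrying a binary vector. The vector held *FvVND4c* under the constitutive CaMV promoter, or nothing (the control labelled WT for that experiment), or *FvMYB46* under the same promoter, or nothing (the control labelled WT for the second experiment). Fruit was sampled 7 days after infiltration from at least 5 fruits per treatment, and each of the 4 groups has 2 libraries.

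All groups, the empty vectors included, share the white-fruited background, the infiltration and the sampling time, and no library of untreated fruit was analysed here. Expression was transient, so a fruit is a mixture of cells that received the construct and cells that did not, and the sources used here do not say how many did. The methods speak of 3 biological replicates, whereas the labels list 2 libraries per group, and how fruits were divided among libraries is not stated. The p-values therefore reflect only how much the libraries of a group differ. RNA came from fruit tissue in bulk, in which fewer cells of a type and less RNA per cell cannot be told apart. The methods do not say which parts of the fruit were taken for RNA. No source used here pairs identifiers of the files with *FvVND4c*, *FvMYB46* or marker genes of fruit tissue, so neither the overexpression nor the tissue was checked.

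Anthocyanins are the red pigments of strawberry fruit. FvMYB10 is an R2R3-MYB transcription factor that switches on the genes of anthocyanin biosynthesis, acting with bHLH and WD40 partner proteins, and a sequence change in the gene is a candidate for the white color of "Yellow Wonder". RAP (Reduced Anthocyanins in Petioles) is a glutathione S-transferase that works at the other end of the pathway, where it is needed to bring finished anthocyanin into the vacuole. FvVND4c, a NAC factor, and FvMYB46, a MYB factor, belong to the switches of secondary cell wall formation, which draws on the same phenylpropanoid precursors as anthocyanin. The comparisons ask whether either switch changes the transcript of the pigment regulator or of the pigment carrier.

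Each library held 9765362 to 12845942 reads in genes, and levels are given as CPM, counts per 1000000 reads of a total scaled by the TMM method. Calls required a p-value under 0.05 after Benjamini-Hochberg adjustment over the 18766 genes tested, and an absolute log2 fold change over 1, that is more than 2-fold. The tests of edgeR's quasi-likelihood fit used all libraries together. The libraries of a pair differed most in the FvMYB46-experiment empty vector, with a chi-square per degree of freedom over genes of 16.5, against 2.44 to 7.57 in the other pairs.

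*FvMYB10* was abundantly transcribed in every group. It averaged 90.6 CPM (SD 16.2 over the 8 libraries), and its level per length of gene, 118 TPM (reads per base, rescaled to a sum of 1000000 in each library), was above that of 95.6% of all genes of the table and ranked 1484 of 34009. The lowest library held 852 reads of *FvMYB10* and the highest 1355. The highest level was 1.62 times the lowest. *RAP* was near the limit of detection. It had 39 reads in all 8 libraries together, a median of 4 per library, and a mean level per length of 0.782 TPM, above that of 44.3% of all genes and of 3.12% of the genes tested.

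**Figure D1:**
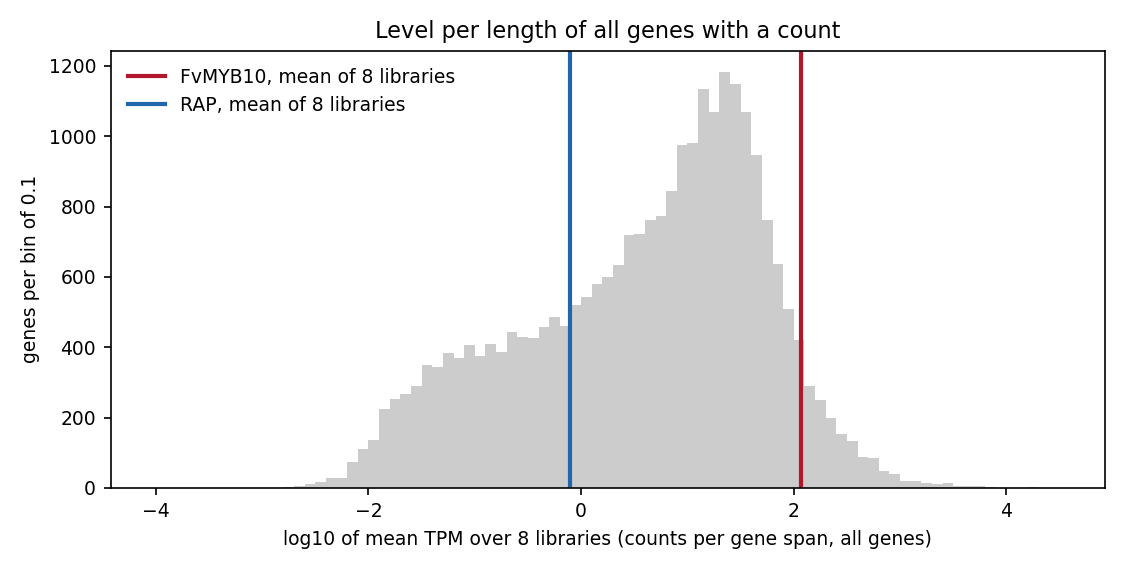
Histogram of the mean level per length of the 26081 genes with a count (x axis, log10 of TPM over 8 libraries; y axis, number of genes), with a line for each of the 2 genes. *FvMYB10* at 118 TPM lies above 94.3% of these genes and *RAP* at 0.782 TPM above 27.3%.

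Reads of *FvMYB10* numbered 1000 and 978 in the FvVND4c overexpression libraries, against 862 and 852 in their empty vector. This is 87.7 and 107 CPM with FvVND4c and 74.2 and 70.0 CPM with its empty vector. Both FvVND4c libraries lay above both empty-vector libraries, as in 28.2% of all genes tested, and their 95% exact Poisson intervals (82.4 to 93.3 and 100.1 to 113.6 CPM) did not reach those of the controls (69.3 to 79.3 and 65.3 to 74.8 CPM). These intervals cover counting error only. The FvVND4c libraries differed 1.22-fold from each other, more than counting error allows, and the controls 1.06-fold.

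In the second experiment the order was turned round. *FvMYB10* had 988 and 970 reads in the FvMYB46 overexpression libraries, against 1355 and 1325 in their empty vector. The levels were 84.1 and 82.4 CPM with FvMYB46 and 113.6 and 106 CPM with its empty vector. Both FvMYB46 libraries lay below both controls, as in 28.9% of genes, and they were the closest pair of *FvMYB10* values, 1.02-fold apart, against 1.07-fold in the controls.

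**Figure D2:**
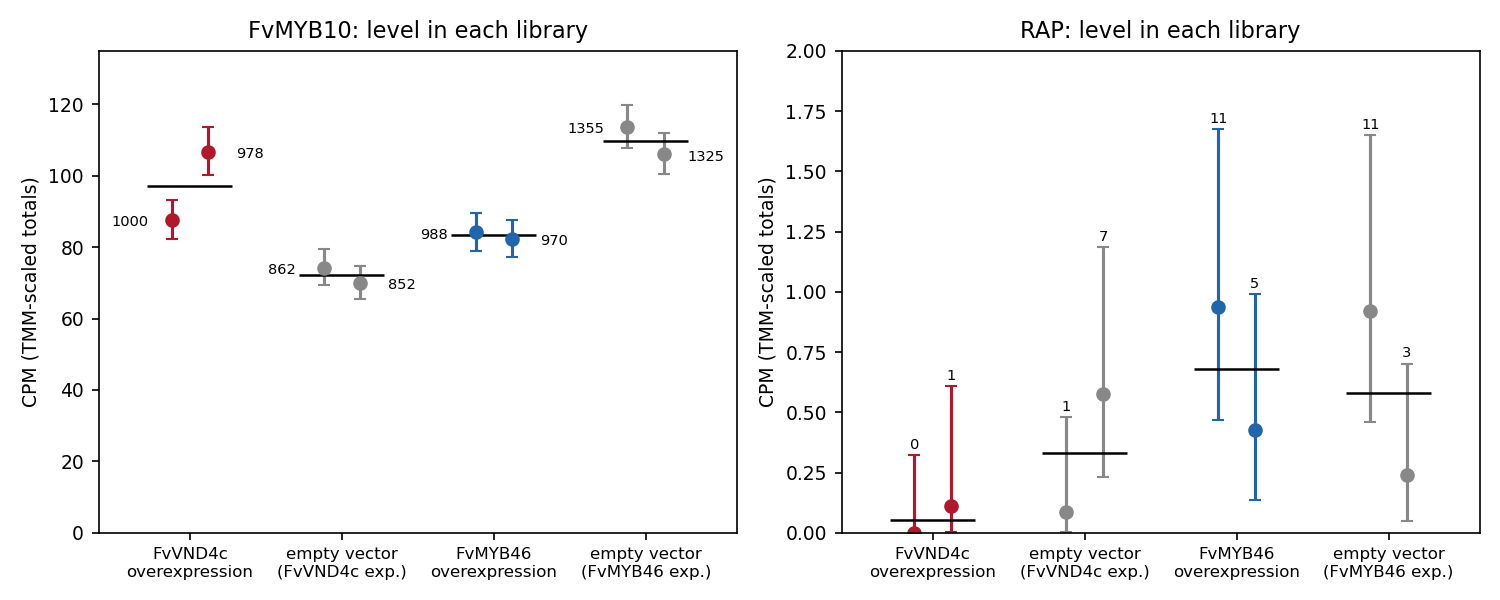
CPM over TMM-scaled totals (y axis) of *FvMYB10* (left) and *RAP* (right) in each library of the 4 groups, with read counts beside the points, 95% exact Poisson intervals as error bars and group means as horizontal lines. *FvMYB10* lies between 70.0 and 113.6 CPM throughout, while *RAP* stays under 1 CPM, with 0 and 1 reads in the FvVND4c overexpression libraries.

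*FvMYB10* averaged 97.2 ± 13.4 CPM with FvVND4c and 72.1 ± 3.0 CPM with its empty vector (SD, n = 2 each). The fitted log2 fold change was 0.43 (SE 0.108, 95% interval 0.19 to 0.67), a fold of 1.35 (1.14 to 1.59), with an adjusted p of 0.0310 by edgeR's quasi-likelihood test. The interval lay wholly under the 2-fold limit. The gene passed the adjusted p, but its fitted log2 fold change was under 1, so it was not called. By this rule 0 of the 2 genes were called, beside 5.29% of all genes tested, and by adjusted p alone 1 of the 2 passed, beside 9.38% of all genes. A larger absolute change was fitted for 27.5% of genes. The adjusted p was not stable to single libraries: 3 of 8 fits that left out 1 library kept it under 0.05, with log2 fold changes of 0.28 to 0.59. It was lost without either control library (log2 fold change 0.47, adjusted p = 0.154 without the first and 0.39, 0.221 without the second), without the second FvVND4c library (0.28, 0.243) and without either FvMYB46 overexpression library (0.43 each, adjusted p = 0.0718 and 0.0724), all by edgeR.

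With FvMYB46, *FvMYB10* averaged 83.3 ± 1.26 CPM, against 109.8 ± 5.36 CPM with its empty vector (SD, n = 2 each). The fitted log2 fold change was -0.40 (SE 0.107, 95% interval -0.64 to -0.16), a fold of 0.758 (0.644 to 0.893), with an adjusted p of 0.0182 by edgeR. This too passed the adjusted p and not the fold limit. Again 0 of the 2 genes were called, beside 13.5% of all genes, and 1 of the 2 passed by adjusted p alone, beside 26.3%. A larger absolute change was fitted for 39.4% of genes. Of 8 fits without 1 library, 6 kept the adjusted p under 0.05, and it was lost without either FvMYB46 overexpression library, with a highest adjusted p of 0.129 by edgeR.

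The 2 responses of *FvMYB10* differed. The response to FvVND4c minus that to FvMYB46 was 0.83 on the log2 scale (SE 0.152, 95% interval 0.49 to 1.16), with an adjusted p of 0.0043 by edgeR. For this difference 0 of the 2 genes were called, beside 9.62% of all genes, and 1 of the 2 passed by adjusted p alone, beside 15.1%. The adjusted p stayed under 0.05 in all 16 alternative fits that gave one, with log2 values of 0.61 to 1.00. None of these fits used the other controls. With 1 control shared by both constructs, the difference becomes by construction that between the overexpression groups, 0.22 (adjusted p = 0.199 by edgeR). With no fold limit, 142 of 18766 genes (0.757%) passed the adjusted p as higher with FvVND4c and as lower with FvMYB46. Whether this is fewer or more than unrelated responses would give was not tested.

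The empty vectors themselves differed. *FvMYB10* was at 109.8 ± 5.36 CPM in the FvMYB46-experiment empty vector and at 72.1 ± 3.0 CPM in the FvVND4c-experiment empty vector (SD, n = 2 each), although both are labelled as empty vector. The log2 difference was 0.61 (SE 0.107, 95% interval 0.37 to 0.84), a fold of 1.52 (1.29 to 1.80), with an adjusted p of 0.0101 by edgeR. By adjusted p and fold 0 of the 2 genes were called, beside 2.24% of all genes. By adjusted p alone 1 of the 2 passed, beside 4.36%, and libraries of the first control all above those of the second were seen for 22% of genes. Without the first FvVND4c-experiment control library the log2 difference was 0.65 (adjusted p = 0.0890), and without the second it was 0.57 (adjusted p = 0.137), both by edgeR.

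Between the overexpression groups the *FvMYB10* levels lay closer together, and both FvVND4c libraries were above both FvMYB46 libraries, as in 28.3% of genes. Its levels of 97.2 ± 13.4 CPM with FvVND4c and 83.3 ± 1.26 CPM with FvMYB46 (SD, n = 2 each) gave a log2 difference of 0.22 (95% interval -0.02 to 0.46) with an adjusted p of 0.199 by edgeR. Without the first FvVND4c library this was 0.39 with an adjusted p of 0.0353, and without the second it was 0.082 with an adjusted p of 0.738, both by edgeR. By adjusted p alone 0 of the 2 genes passed here, beside 18.7% of all genes, and 0 of the 2 were called, beside 9.52%. By construction the 0.83 of the responses is the sum of the 0.61 between the empty vectors and the 0.22 between the overexpression groups. The first part is 73.3% of it. The 0.83 is equally the 0.43 for FvVND4c minus the -0.40 for FvMYB46, so this share does not name a source. Where the difference arose was not tested. The experiment and its empty vector cannot be told apart in the responses.

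The order of the *FvMYB10* levels was FvMYB46-experiment empty vector, FvVND4c overexpression, FvMYB46 overexpression and FvVND4c-experiment empty vector. No neighbours in this order differed by edgeR's adjusted p. FvVND4c overexpression set against the second experiment's empty vector gave -0.18 (95% interval -0.41 to 0.06, adjusted p = 0.384), the overexpression groups gave the 0.22 above, and FvMYB46 overexpression against the first experiment's empty vector gave 0.21 (95% interval -0.03 to 0.45, adjusted p = 0.220). Against the other control both constructs thus gave the opposite sign, and against the mean of both controls the log2 fold changes were 0.13 (adjusted p = 0.465) for FvVND4c and -0.10 (adjusted p = 0.517) for FvMYB46, by edgeR.

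**Figure D3:**
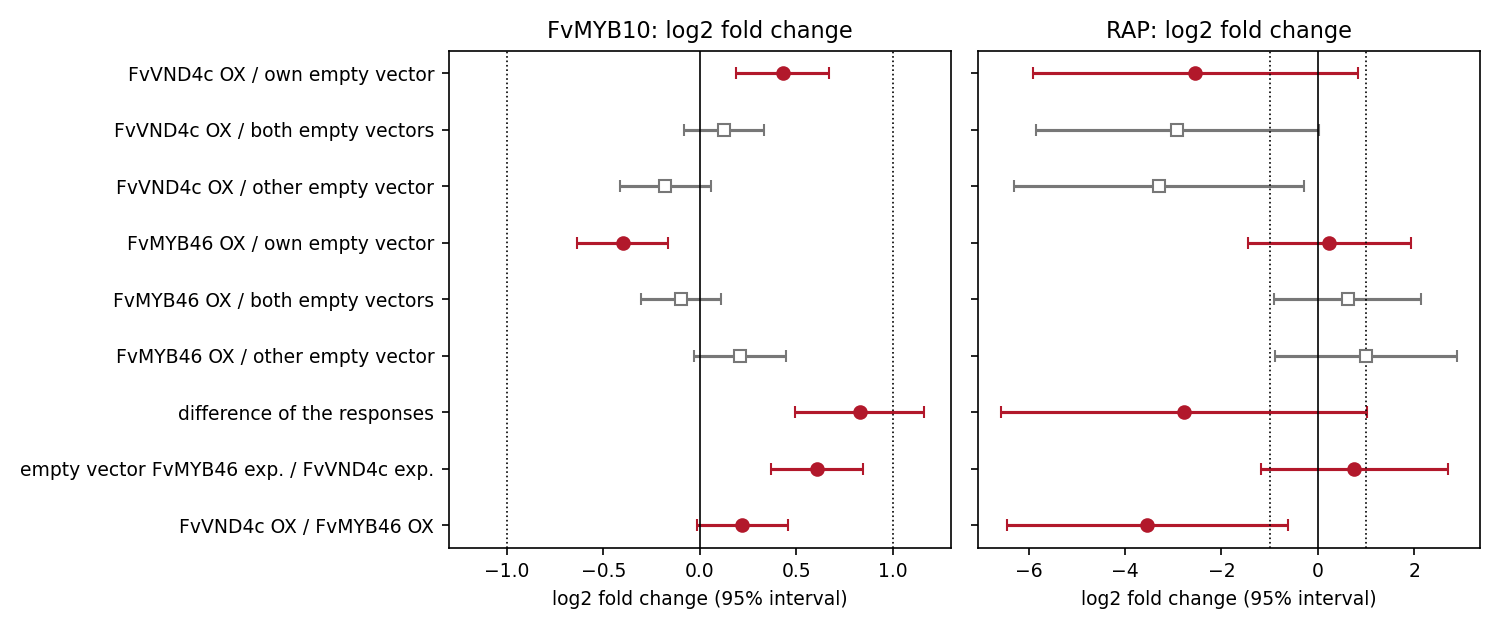
Fitted log2 fold changes or differences (x axis) with 95% intervals for *FvMYB10* and *RAP*, with filled circles for the comparisons of the design, open squares for the same constructs against the other or both empty vectors, and dotted lines at the 2-fold limit. The *FvMYB10* values change side with the control, 0.43 against -0.18 for FvVND4c, and the *RAP* intervals are several log2 units wide.

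The deposited TPM files gave *FvMYB10* 112 and 128 TPM with FvVND4c, against 104 and 95.4 TPM with its empty vector. They gave 112.2 and 109.7 TPM with FvMYB46, against 153 and 131 TPM with its empty vector. The directions were those of the CPM, but the scale matters for the FvVND4c comparison. On log2(TPM + 1) the *FvMYB10* difference was 0.26, with a limma adjusted p of 0.138, while the median of all genes stood at -0.16. Relative to that median *FvMYB10* was 0.42 higher with FvVND4c. The TMM scale is already centred in this way, with a median of -0.01, so its nearby value of 0.43 is no separate check. For FvMYB46 the log2(TPM + 1) difference was -0.35 beside a median of 0.04.

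*RAP* gave 0 and 1 reads with FvVND4c, against 1 and 7 reads with its empty vector. It gave 11 and 5 reads with FvMYB46, against 11 and 3 reads with its empty vector. Only the first library of each FvMYB46-experiment group thus reached 10 reads, and through them the gene passed the filter on low counts. The levels were 0 and 0.109 CPM with FvVND4c and 0.0861 and 0.575 CPM with its empty vector, then 0.937 and 0.425 CPM with FvMYB46 and 0.922 and 0.240 CPM with its empty vector. A floor of 3 reads corresponds to 0.240 to 0.327 CPM in these libraries, and 4 of the 8 were at or under it. The authors' TPM files do not list *RAP*.

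*RAP* transcripts were not raised detectably by either construct. With reads of the 2 libraries pooled, *RAP* had 0.0486 CPM with FvVND4c (1 read, 95% exact Poisson interval 0.00123 to 0.271), against 0.336 CPM with its empty vector (8 reads, 0.145 to 0.663). The ratio of 0.145 had a 95% exact binomial interval that ran up to 1.08, for counting error only. With FvMYB46 there were 16 reads, 0.680 CPM (0.389 to 1.10), against 14 reads, 0.573 CPM (0.313 to 0.962), with its empty vector, a ratio of 1.19 (0.543 to 2.63). A doubling by FvMYB46 thus lies inside the counting error.

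None of the *RAP* comparisons passed an adjusted p of 0.05 in edgeR. The fitted log2 fold changes were -2.54 (95% interval -5.91 to 0.83, adjusted p = 0.351) for FvVND4c and 0.24 (-1.45 to 1.93, adjusted p = 0.862) for FvMYB46, and the difference of these responses was -2.78 (-6.58 to 1.02, adjusted p = 0.308). At such counts the fitted values depend on the prior count of the fit and are no bounds. The empty vectors differed by 0.76 (-1.19 to 2.70, adjusted p = 0.698).

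The lowest *RAP* level, with FvVND4c, stood furthest from that with FvMYB46. The FvVND4c libraries lay below both FvMYB46 libraries, as in 32.6% of genes. The pooled ratio was 0.0715 (95% exact binomial interval 0.0017 to 0.460), for counting error only. The log2 difference of -3.54 (95% interval -6.45 to -0.62) had an unadjusted p of 0.0220 and an adjusted p of 0.0938 by edgeR, so it was not called. *RAP* passed the filter on low counts partly through the first FvMYB46 library, with 11 reads. A gene kept for its reads in a compared group is tilted towards a difference, so this test cannot decide whether the groups differ. In order of level the groups ran FvMYB46 overexpression, FvMYB46-experiment empty vector, FvVND4c-experiment empty vector and FvVND4c overexpression, and the libraries of each group overlapped those of the next.

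Levels of the 2 genes can be set side by side per length of gene. Per base, *FvMYB10* had 149 times the reads of *RAP* over all libraries (95% exact binomial interval 109 to 210). This interval and those that follow cover counting error only, not the spread between libraries. The ratio was 1382 (248 to 54624) with FvVND4c and 149.7 (75.8 to 347) with its empty vector, then 85.5 (52.5 to 149.9) with FvMYB46 and 134 (79.6 to 245) with its empty vector. The width of the first interval reflects the single *RAP* read in its denominator. Fruit with the highest transcript level of the regulator, that of the FvMYB46-experiment empty vector, had 14 *RAP* reads. In falling order of that level, FvVND4c overexpression had 1, FvMYB46 overexpression 16 and the FvVND4c-experiment empty vector 8.

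Across the libraries the levels of the genes showed no detectable relation. Pearson's r of log2(CPM + 1) over 8 libraries was 0.06 (two-sided exact permutation p = 0.889) and Spearman's rho was 0.02 (two-sided exact permutation p = 0.977), with 1 relation tested, so adjustment leaves both as they are. Without the 2 libraries farthest from the median *FvMYB10* level, r was -0.20 (exact permutation p = 0.719). The 8 points fall into 4 pairs that share a treatment, and most *RAP* values rest on fewer than 10 reads. Of 17608 genes with a mean of at least 1 CPM, 45.0% had a higher r with *FvMYB10* than *RAP* had.

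The genes most like each of them over the 8 libraries were sought by the same r. For *FvMYB10* they were FvH4_5g04370 (r = 0.97, 5.55 CPM on average) and FvH4_3g35040 (r = 0.96, 5.85 CPM), and 24 genes passed an r of 0.9. FvH4_3g35040 had 6.32 and 7.20 CPM with FvVND4c, against 3.19 and 3.28 CPM with its empty vector. It had 5.37 and 4.93 CPM with FvMYB46, against 8.89 and 7.60 CPM with its empty vector, an order like that of *FvMYB10*, for which it was chosen. Its fitted log2 fold changes were 1.06 with FvVND4c and -0.68 with FvMYB46, and those of FvH4_5g04370 were 0.75 and -0.87. As both genes were picked for their likeness over these libraries, the values are a description, with no test.

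For *RAP* the closest genes were FvH4_6g38852 (r = 0.97, 5.50 CPM on average) and FvH4_5g29200 (r = 0.95, 1.17 CPM). Few reads lie behind *RAP* and FvH4_5g29200, and 10 genes passed an r of 0.9 with *RAP*. These are the highest of 17608 values over 8 points, given as a description. No source used here gives a name or role to these 4 identifiers.

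Both genes lie on chromosome 1 of the *F. vesca* v4.0.a2 annotation, 5.19 Mb apart. *FvMYB10* spans positions 13950290 to 13952507 on the minus strand, 2218 bases with introns, and *RAP* spans 19147400 to 19148949 on the plus strand, 1550 bases. Neither span overlaps another gene, so their reads cannot be those of an annotated antisense or overlapping gene. *FvMYB10* is set apart by 16078 and 23131 bases from the genes on its sides, and *RAP* by 861 and 1726 bases.

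*FvMYB10* had a higher level per length than each of its 10 neighbours. Of the 5 genes on either side, 4 had a read in any library, and the highest reached 24.4 TPM. By edgeR, 0 of the 3 that could be tested passed an adjusted p in any of the 5 comparisons, beside 4.36% to 26.3% of all genes by comparison, so 3 genes are too few to set the region apart. Their log2 values were -0.37 to 0.03 for FvVND4c and -0.21 to 0.43 for FvMYB46. Of the 10 genes around *RAP*, 9 had a read and 7 had a higher level per length than *RAP*, with a median of 1.39 TPM and a highest of 31.8 TPM. Among the 8 that could be tested, 1 was called higher and 1 lower with FvVND4c, beside 5.29% of all genes called, and 0 higher and 2 lower with FvMYB46, beside 13.5%. For the difference of the responses 2 were called higher and 1 lower, beside 9.62% of all genes. Between the empty vectors 0 were called higher and 1 lower, beside 2.24%, and between the overexpression groups 2 were called higher and 0 lower, beside 9.52%.

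**Figure D4:**
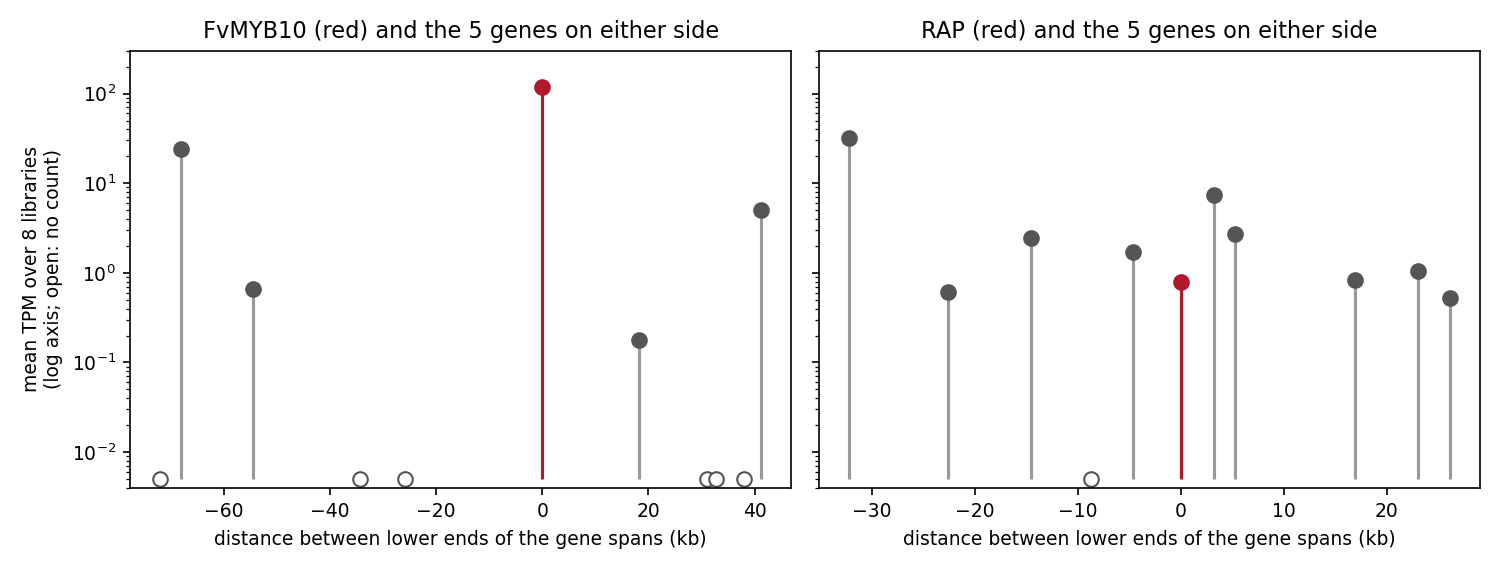
Mean level per length over the 8 libraries (y axis, TPM on a log axis) of *FvMYB10* (left, red) and *RAP* (right, red) and of the 5 annotated genes on either side, by distance in kb (x axis); open circles are genes without a read. *FvMYB10* at 118 TPM exceeds all 10 of its neighbours, while 7 of 10 neighbours exceed *RAP* at 0.782 TPM.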

How the data were processed

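RNA-seq libraries of infiltrated fruit were grouped by their labels. The authors made the deposited counts, whole numbers of reads per gene, with fastp 0.20.1, HISAT2 2.2.1, SAMtools 1.9 and featureCounts 2.0.3. Whether counting used strand is not given in the sources. The deposited TPM values, for 17698 genes, were found to be counts per base of genomic span (exons and introns), scaled to the same sum in each library. The authors' filter behind them is not stated. Counts were tested with edgeR 4.0.16 in R 4.3.3 (filterByExpr, TMM, quasi-likelihood, 4 groups in 1 fit of 8 libraries, no covariate), which kept 18766 of 34009 genes. The standard error is the log2 fold change over the square root of F. The common biological coefficient of variation was 0.107, that of *FvMYB10* 0.0807 and that of *RAP* 0.336. The fit was also run on simulated counts, with no outcome given here.

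Alternatives were RLE scaling, DESeq2 1.42.0, limma 3.58.1 on log2(TPM + 1) or log2(TPM + 0.1), other low-count filters and thresholds, 4-library fits, a replicate block, other controls and leaving out each library. Plain totals were added after seeing the data. Like genes were the 2 with the highest Pearson r per gene at a mean of at least 1 CPM. The genes and lists were chosen with earlier results of these data known. Of 34009 identifiers, 0 matched the gene table at hand, so no sequence is shown.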

Additional observations from a re-analysis of the deposited data

Results flagged for a closer look

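The response of *FvMYB10* differed between the experiments: FvVND4c over its empty vector minus FvMYB46 over its empty vector was 0.83 on the log2 scale, by a test of the difference itself (adjusted p = 0.0043, edgeR's quasi-likelihood test, n = 2 libraries per group). Its 2 parts were 0.43 for FvVND4c and -0.40 for FvMYB46. Both FvVND4c libraries were above their controls, as in 28.2% of genes tested, and both FvMYB46 libraries below theirs, as in 28.9%. Against the other experiment's control, the *FvMYB10* log2 fold changes were -0.18 for FvVND4c and 0.21 for FvMYB46. The empty vectors themselves differed by 0.61, and what part the experiment has in the 0.83 was not tested.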

How the results depend on the processing

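The text's limits come from the controls, from single libraries and, for *RAP*, from 39 reads. With no fold limit *FvMYB10* passed in 4 comparisons (0.43, -0.40, 0.83 and 0.61, in the order FvVND4c, FvMYB46, difference of responses, empty vectors). Of all genes tested, 9.38%, 26.3%, 15.1% and 4.36% passed in that order. These comparisons share the same 4 group levels and are not separate results. Against the other experiment's control the *FvMYB10* log2 fold changes reversed to -0.18 for FvVND4c and 0.21 for FvMYB46. Judged by adjusted p alone it no longer passed against both controls (0.13 and -0.10). For FvVND4c it was also lost with no low-count filter (0.44, adjusted p = 0.0606), with limma on log2(TPM + 1) or log2(TPM + 0.1) (0.26 each) and with plain totals, added after seeing the data (0.32, adjusted p = 0.0865). Over the alternatives with both libraries of each group, its adjusted p ran from 0.0154 to 0.465 for FvVND4c and 0.0097 to 0.517 for FvMYB46 (all edgeR). It ran from 0.00053 (DESeq2) to 0.0280 (limma) for the difference and 0.0012 (DESeq2) to 0.0376 (limma) for the empty vectors. The other controls gave the highest values for the single responses and were not fitted for the difference. A control shared by both constructs would leave for the difference the 0.22 between overexpression groups (adjusted p = 0.199 by edgeR). These ranges therefore do not rank the results by stability.

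Leaving out 1 library, *FvMYB10* ranged over 0.28 to 0.59 for FvVND4c, -0.45 to -0.35 for FvMYB46, 0.70 to 1.00 for the difference, 0.56 to 0.65 between empty vectors and 0.082 to 0.39 between overexpression groups. By adjusted p it was then lost in 5 of 8 fits for FvVND4c, 2 of 8 for FvMYB46, 0 of 8 for the difference and 2 of 8 for the empty vectors, and gained in 1 of 8 between overexpression groups. *RAP* ranged over -5.04 to -0.70, -0.44 to 1.46, -5.26 to -0.94, -0.46 to 2.60 and -6.03 to -2.50 in that order. *RAP* reversed for FvMYB46 without the second control library (-0.44) or the first overexpression library (-0.43), and between empty vectors without the first FvMYB46-experiment library (-0.46). By unadjusted p the *RAP* difference of -3.54 between overexpression groups passed, for a gene kept through its reads in the FvMYB46 experiment. The correlation of the genes ranged over -0.33 to 0.22, reversing without the first FvMYB46-experiment control (-0.33) and the first FvVND4c-experiment control (-0.12).

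Called genes numbered 992 for FvVND4c, 2539 for FvMYB46, 1806 for the difference, 420 between empty vectors and 1786 between overexpression groups. With no fold limit these were 1760, 4935, 2831, 818 and 3517. With at least 10 counts in every library they were 580 for FvVND4c, 1507 for FvMYB46 and 956 between overexpression groups. Between empty vectors, unadjusted p gave 847 and the 4-library fit 228. Without 1 library the counts were 655 to 1251, 2042 to 2825, 1237 to 2394, 189 to 751 and 1390 to 1997 in the same order.

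Same-numbered libraries share only a number by the labels, although their deviations from group means correlated at 0.13 to 0.28 over all 6 pairs of groups. With the replicate number as a block *FvMYB10* gave 0.43 (adjusted p = 0.0154), -0.40 (0.0097), 0.83 (0.0016) and 0.61 (0.0034), *RAP* gave -2.59, 0.24, -2.83 and 0.72, and counts of calls were 1101, 2619, 2111, 529 and 1871, all by edgeR. *RAP* could not be fitted with at least 10 counts in every library, from the TPM files, or in most 4-library fits.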
